A study of Homo sapiens with 45 samples.

Results

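The CCN family and the YAP/TAZ axis are described here through 10 genes: the matricellular ligands CCN1 to CCN6, the coactivators YAP1 and WWTR1, and the target genes ANKRD1 and AMOTL2. They were taken by symbol, with earlier results of these data known, and make up 10 of the 41582 genes in the data. The values of a gene were summed over its RefSeq transcripts, 50 in all for these genes. RNA was measured in poly(A) sequencing libraries from human tumour cell lines, and levels are given in TPM, a scale corrected for transcript length and library depth.

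The 45 libraries came from established lines, with 3 libraries per group. Of the 13 parental lines, 7 are Ewing sarcoma (TC71, SKES1, A673, RDES, MHHES1, EW24 and EW3) and 6 are osteosarcoma (U2OS, SAOS2, MG63, HOS-MNNG, KHOS and G292). None of these has a listed treatment. The labels give G292 and HOS-MNNG as clones (G-292 clone A141B1 and MNNG/HOS Cl #5) and KHOS as KHOS/NP. HOS-MNNG and KHOS both descend from the HOS line, so they are not independent tumours. The 2 remaining groups were A673 cells carrying sh908, a hairpin against KCNN1, a small-conductance calcium-activated potassium channel, without doxycycline (uninduced) and with doxycycline (induced). No group with another hairpin was analysed here, and the sources used here give no dose or duration of doxycycline. The study asked how the EWS::FLI1 fusion protein relates to KCNN1 and calcium signalling in Ewing sarcoma.

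CCN proteins are secreted, cysteine-rich matricellular proteins that bind integrins, heparan sulphate proteoglycans and growth factors, and they act in bone formation, wound healing and fibrosis. YAP1 and TAZ (the product of WWTR1) are transcriptional coactivators that the Hippo kinases phosphorylate and hold in the cytoplasm. When they enter the nucleus they join TEAD factors on DNA and raise transcription of genes such as CCN1, CCN2, ANKRD1 and AMOTL2. RNA levels show neither the phosphorylation nor the location of YAP1 and TAZ.

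Each Ewing library summed to 23132161 to 51413254 estimated counts, against 15974173 to 44911542 per osteosarcoma library and 16619617 to 24818664 per sh908 library. Of 8 Ewing sarcoma markers, 7 to 8 reached 1 TPM in each Ewing line and 3 to 6 in each osteosarcoma line. Of 8 osteosarcoma markers, 3 to 5 reached 1 TPM in the lines of either type, so this list did not separate the types by count, although 3 of the 6 tested (RUNX2, COL1A1 and SPP1) were called higher in osteosarcoma lines. Summed leukocyte markers stayed at or under 10.2 TPM and summed endothelial markers at or under 6.86 TPM in every line. Summed epithelial markers ran from 3.74 to 620 TPM in Ewing lines and from 9.93 to 1737 TPM in osteosarcoma lines. The labels do not say that replicates are separate cultures. In the comparisons of 3 against 3 libraries, p-values thus measure only the spread between these libraries, which may be technical. In the main test between tumour types the libraries of a line were summed, so p-values measure the spread between these lines.

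KCNN1, the hairpin's target, was at 37.8, 35.3 and 17.99 TPM in the uninduced sh908 libraries and at 10.2, 13.7 and 7.75 TPM in the induced ones. The groups did not overlap, and KCNN1 was lower with doxycycline in 3 of 3 pairs. In parental A673 it was at 31.97, 38.9 and 37.2 TPM.

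By RefSeq on GRCh38.p14, CCN1 (gene ID 3491) lies at chr1:85580761-85583950 and CCN2 (1490) at chr6:131948176-131951372. CCN5 (8839) is at chr20:44714861-44727811 and CCN6 (8838) at chr6:112052813-112069686. YAP1 (10413) is at chr11:102110447-102233424, WWTR1 (25937) at chr3:149517235-149724788, ANKRD1 (27063) at chr10:90912096-90921087 and AMOTL2 (51421) at chr3:134355345-134375417. RefSeq promoter sequences (GRCh38.p14) were at hand for 6 of the 10 genes, in 8 windows of 250 bases before a transcription start. They were searched on both strands for GGAATG, the core of the element that TEAD factors bind. The CCN2 window held 3 copies, the ANKRD1 window 2, and 1 each of the AMOTL2 windows, the YAP1 window and the CCN6 window held 1. Neither WWTR1 window nor the other AMOTL2 window held one. Of 35116 windows of all genes, 11.9% held at least 1 copy, 0.940% at least 2 and 0.0826% at least 3.

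The sequences with copies in the 3 target genes are shown because these genes are followed through the comparisons below as readouts of YAP/TAZ, and capitals mark GGAATG or its reverse complement CATTCC. All 3 genes are on the minus strand and the letters run 5′ to 3′ along it. The CCN2 stretch is chr6:131951374-131951622, with copies that begin 169, 104 and 95 bases before the RefSeq start. The ANKRD1 stretch is chr10:90921277-90921337, the part of the window outside GENCODE v29 exons, with a copy that begins 220 bases before the start; the other copy, 128 bases before the start, lies in an exon of that annotation and is not shown. The AMOTL2 stretch is 30 bases around the copy, chr3:134374499-134374528, 69 bases before the second of 2 RefSeq starts, which lies inside the gene, and likewise inside a GENCODE exon.
CCN2: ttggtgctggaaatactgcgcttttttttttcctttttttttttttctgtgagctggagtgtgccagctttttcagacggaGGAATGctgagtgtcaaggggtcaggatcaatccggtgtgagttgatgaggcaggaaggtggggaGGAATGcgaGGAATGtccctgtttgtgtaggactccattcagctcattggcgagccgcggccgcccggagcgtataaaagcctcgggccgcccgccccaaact
ANKRD1: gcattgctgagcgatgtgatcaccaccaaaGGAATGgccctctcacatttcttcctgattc
AMOTL2: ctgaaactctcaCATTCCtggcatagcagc
The ANKRD1 window also held 1 match to TGANTCA, an AP-1 type element, 195 bases before the start, which 6.57% of all windows held and no other window of these genes did. These matches describe letters in a window and do not show binding.

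**Figure D1:**
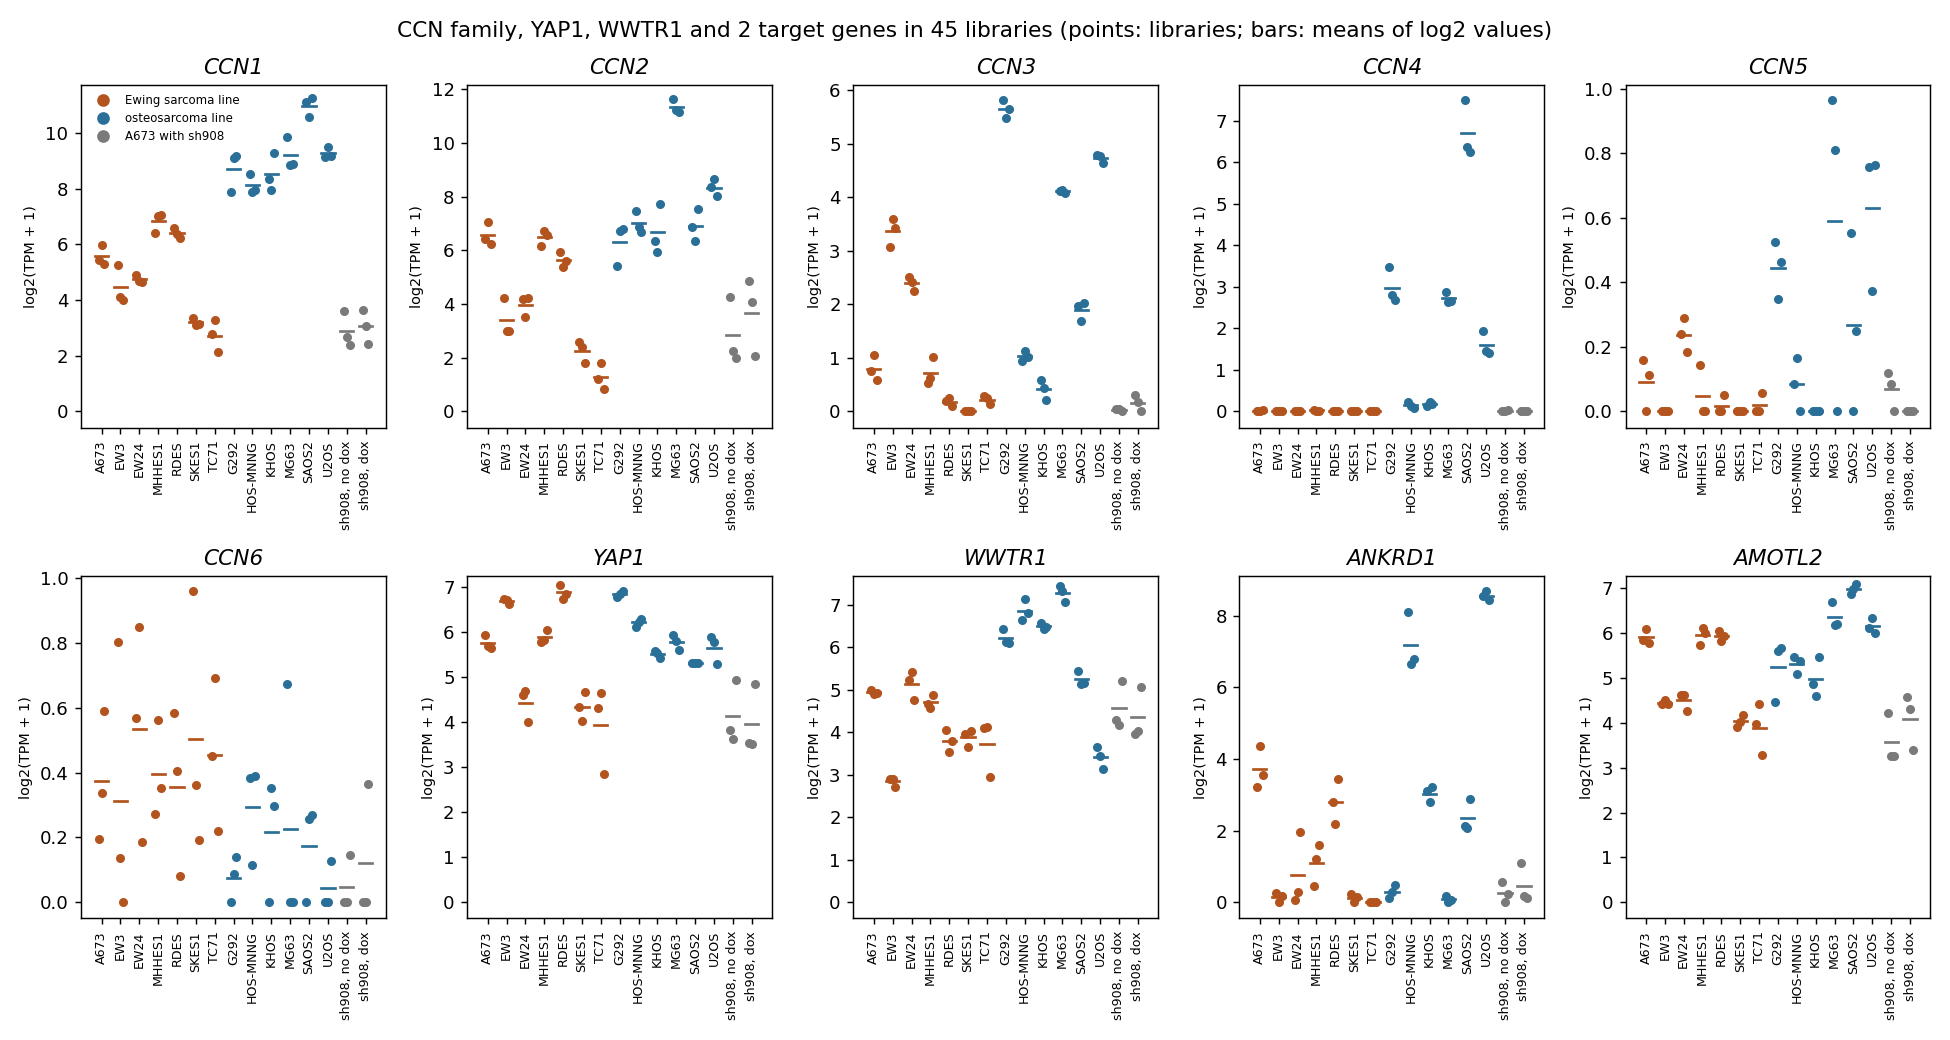
Levels of the 10 genes as log2(TPM + 1) in 45 libraries, 1 panel per gene; points are libraries, short bars are means of the 3 libraries of a group, and colours give Ewing sarcoma lines, osteosarcoma lines and A673 with sh908. CCN1 and CCN4 are lower in each Ewing line than in each osteosarcoma line, whereas YAP1 overlaps between the types, with 3 Ewing lines below the lowest osteosarcoma line.

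CCN1, a ligand of integrins that is an immediate target of YAP/TAZ, was higher in every osteosarcoma line than in any Ewing line. Among osteosarcoma lines it was 2062 ± 476 TPM in SAOS2, 622 ± 89.6 in U2OS, 618 ± 262 in MG63, 451 ± 188 in G292, 394 ± 193 in KHOS and 282 ± 71.9 in HOS-MNNG (mean ± SD, n = 3 libraries, here and below). Among Ewing lines it was 115 ± 26.5 TPM in MHHES1, 83.9 ± 10.2 in RDES, 47.4 ± 12.4 in A673, 25.9 ± 2.41 in EW24, 22.9 ± 12.7 in EW3, 8.19 ± 0.867 in SKES1 and 5.93 ± 2.64 in TC71. The library ranges of neighbours in this order overlapped except at 5 of 12 steps: SAOS2 to U2OS, HOS-MNNG to MHHES1, RDES to A673, A673 to EW24 and EW3 to SKES1. The lowest osteosarcoma line thus stood above the highest Ewing line, and levels within the Ewing lines still differed 19.3-fold between the ends.

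CCN2, known as connective tissue growth factor, was dominated by a single line. MG63 had 2625 ± 478 TPM and U2OS 330 ± 73.6, and these were separate from each other and from the lines below. HOS-MNNG (131 ± 38.8 TPM), SAOS2 (128 ± 54.0), KHOS (118 ± 83.0) and G292 (85.6 ± 38.2) overlapped with the Ewing lines A673 (97.1 ± 30.3) and MHHES1 (90.1 ± 16.8), and G292 with RDES (49.3 ± 9.83). The remaining Ewing lines were lower, at 15.2 ± 4.002 TPM in EW24, 10.6 ± 6.35 in EW3, 3.94 ± 1.30 in SKES1 and 1.55 ± 0.867 in TC71. RDES was separate from EW24, and EW3 from SKES1.

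CCN1 and CCN2 together made up most CCN transcripts, from 74.6% of the summed TPM of the 6 CCN genes in EW3 to 99.8% in KHOS. CCN1 exceeded CCN2 in 11 lines. The 2 exceptions were A673, where CCN2 was 66.5 ± 1.09% of the sum, and MG63, where it was 80.9 ± 3.36%. At the other end CCN1 was 89.5 ± 1.29% of the sum in SAOS2 and CCN2 5.43 ± 1.24%. The remainder in EW3 and in G292 (CCN1 with CCN2 88.7%) was mostly CCN3.

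CCN3 (gene ID 4856, chr8:119416446-119424434), which in many cells opposes growth, was separate between neighbours at 7 of the 12 steps of its order. It was 49.4 ± 5.76 TPM in G292, 25.7 ± 1.5 in U2OS, 16.4 ± 0.340 in MG63, 9.42 ± 1.85 in EW3, 4.28 ± 0.474 in EW24 and 2.74 ± 0.46 in SAOS2, with no overlap between neighbours. The other lines had at most 1.05 ± 0.146 TPM, in HOS-MNNG, and CCN3 was listed at 0 in all 3 SKES1 libraries. High and low lines occurred in both tumour types.

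CCN4 (gene ID 8840, chr8:133191039-133231690), also called WISP1 and known from WNT signalling and osteoblasts, was nearly restricted to 4 osteosarcoma lines. It was 112 ± 58.0 TPM in SAOS2, with 179, 82.0 and 75.7 in its libraries, 7.16 ± 2.55 in G292, 5.64 ± 0.620 in MG63 and 2.07 ± 0.637 in U2OS. KHOS had 0.128 ± 0.0316 TPM and HOS-MNNG 0.105 ± 0.0596. No Ewing line exceeded 0.0155 TPM, in MHHES1, and 4 of 7 (RDES, EW24, SKES1 and TC71) were listed at 0 in every library. All 21 Ewing libraries together held 6.06 estimated counts of CCN4 against 28539 in the 18 osteosarcoma libraries.

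CCN5 and CCN6 were scarce everywhere. CCN5, the family member without the C-terminal domain, reached at most 0.567 ± 0.501 TPM, in MG63, and was listed at 0 in EW3, SKES1 and KHOS; EW24 was highest among Ewing lines at 0.180 ± 0.0427 TPM. CCN6, a family member linked to cartilage upkeep, ran from 0.0308 ± 0.0534 TPM in U2OS to 0.475 ± 0.333 in EW24, with an overlap at all 12 steps of the order. These levels rest on few reads, 90 estimated counts of CCN6 over all Ewing libraries and 27 over all osteosarcoma libraries.

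YAP1 was highest in lines of both types: 118 ± 12.7 TPM in RDES, 115 ± 5.18 in G292 and 103 ± 4.09 in EW3. The middle held HOS-MNNG (73.7 ± 4.48 TPM), MHHES1 (58.6 ± 6.09), MG63 (54.2 ± 6.37), A673 (53.7 ± 6.35), U2OS (50.4 ± 10.9), KHOS (44.9 ± 2.44) and SAOS2 (38.9 ± 0.0700). EW24 (21.2 ± 5.31 TPM), SKES1 (19.7 ± 4.55) and TC71 (16.5 ± 9.21) were lowest and overlapped with each other, but not with SAOS2. The TC71 replicates were 19.1, 24.1 and 6.26 TPM, and its replicate 3 was also the lowest for CCN1, CCN2, WWTR1 and AMOTL2.

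WWTR1, which encodes TAZ, followed a different order. It was 155 ± 20.3 TPM in MG63, 116 ± 21.2 in HOS-MNNG, 89.1 ± 3.84 in KHOS and 73.6 ± 9.69 in G292. SAOS2 (37.2 ± 4.75 TPM), EW24 (34.7 ± 8.04) and A673 (29.8 ± 1.09) overlapped, each with its neighbour, and MHHES1 (25.2 ± 2.98) was just below A673 with no overlap. SKES1 (13.9 ± 1.98 TPM), TC71 (13.1 ± 5.53), RDES (12.96 ± 2.52) and U2OS (9.74 ± 1.90) overlapped with their neighbours, and EW3 was lowest at 6.20 ± 0.523. By line means, U2OS was thus the one osteosarcoma line inside the Ewing range.

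The balance of the 2 coactivators differed widely between lines. YAP1 was 94.3 ± 0.251% of the summed TPM of YAP1 and WWTR1 in EW3, 90.2 ± 0.808% in RDES and 83.7 ± 0.876% in U2OS. WWTR1 was above YAP1 in 4 lines, with YAP1 at 25.9 ± 0.320% in MG63, 33.5 ± 1.17% in KHOS, 37.8 ± 1.02% in EW24 and 39.2 ± 3.68% in HOS-MNNG. The SD within a line was at most 5.56 percentage points, in TC71. These are shares of RNA, not of protein.

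**Figure D2:**
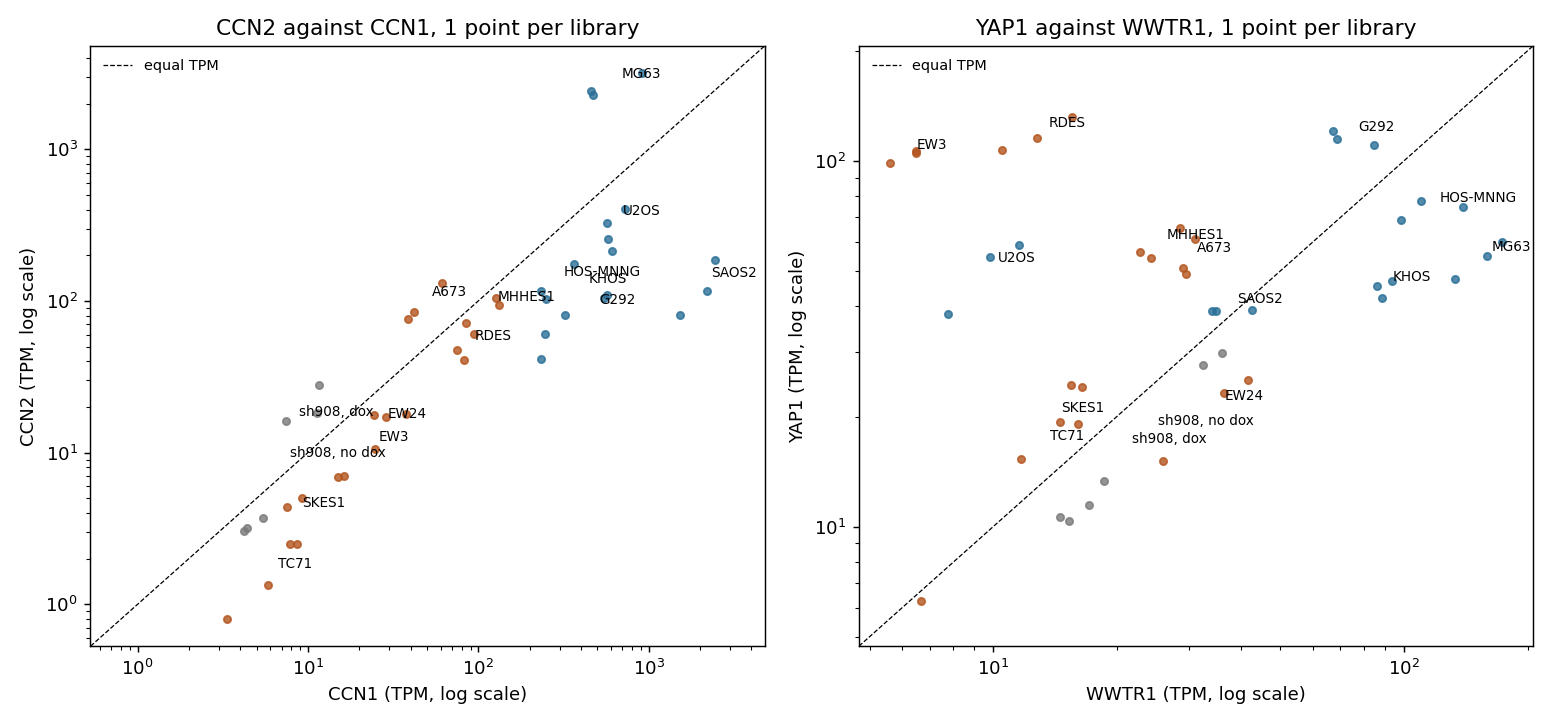
CCN2 against CCN1 (left) and YAP1 against WWTR1 (right) in TPM on log scales, 1 point per library with each group's name at its mean and the dashed line at equal TPM; orange, Ewing lines; blue, osteosarcoma lines; grey, A673 with sh908. MG63 and A673 are the parental lines above the line for CCN2, and the means of both sh908 groups are above it too. EW3, RDES and U2OS lie far above it for YAP1.

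ANKRD1, a muscle ankyrin repeat protein and YAP/TAZ target, was the most scattered of the target genes. It was 378 ± 31.1 TPM in U2OS, 161 ± 97.7 in HOS-MNNG, 12.9 ± 6.02 in A673, 7.25 ± 1.18 in KHOS, 6.41 ± 3.18 in RDES and 4.30 ± 1.75 in SAOS2. MHHES1 had 1.23 ± 0.832 TPM and EW24 1.05 ± 1.60, and the other 5 lines had at most 0.228 ± 0.153 TPM (G292); TC71 was listed at 0. MG63, the line with the highest CCN2 and WWTR1, had 0.0582 ± 0.0671 TPM of ANKRD1.

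AMOTL2, an angiomotin family protein that binds YAP1 and is itself a target, varied least among the target genes. It was 126 ± 9.47 TPM in SAOS2, 82.6 ± 17.9 in MG63, 70.4 ± 8.43 in U2OS, 39.6 ± 15.999 in G292, 38.9 ± 5.06 in HOS-MNNG and 31.6 ± 10.6 in KHOS. Ewing lines formed 2 tiers: MHHES1 (61.4 ± 8.26 TPM), RDES (60.2 ± 4.49) and A673 (59.2 ± 7.13), and then EW24 (21.9 ± 3.10), EW3 (20.9 ± 0.822), SKES1 (15.5 ± 1.57) and TC71 (14.6 ± 5.87). The upper tier overlapped with U2OS and exceeded G292.

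HOS-MNNG and KHOS differed most in ANKRD1, at 273, 98.9 and 110 TPM against 7.57, 5.95 and 8.24 TPM, a ratio of means of 22.2. The library ranges of these HOS derivatives were also separate for CCN3 (3.06 times higher in HOS-MNNG), YAP1 (1.64) and WWTR1 (1.30). They overlapped for the other 6 genes.

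Transcript shares are given for the coactivators and AMOTL2, without a test. NM_015472.6 made up 94.2 ± 4.67% of WWTR1 TPM in Ewing lines (n = 7) and 93.2 ± 3.18% in osteosarcoma lines (n = 6). NM_016201.4 made up 91.9% and 91.6% of AMOTL2. YAP1 was spread over many isoforms, led by NM_001195044.2 with 22.8 ± 6.001% in Ewing lines and 20.9 ± 4.36% in osteosarcoma lines. Isoforms of YAP1 share most of their sequence, so reads can be split among them in more than 1 way. WWTR1-AS1, which is antisense to WWTR1, ran from 0.0491 to 1.35 TPM over all libraries. The libraries were made with a stranded kit, but the sources used here do not say whether the counting used strand, so reads of the pair may not have been told apart.

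Between the tumour types, 4 of the 10 genes were lower in Ewing lines at a false discovery rate (FDR) under 0.05: CCN1, CCN2, CCN4 and WWTR1. None was called higher, as 5.96% of all genes were. The test was edgeR's quasi-likelihood test on counts summed per line, 7 against 6, adjusted by Benjamini-Hochberg over all 22000 genes tested, of which 3159 (14.4%) were called and 8.4% were called lower. Of the 10 genes 9 passed the low-count filter, CCN5 being the exception, and 8 of these had an unadjusted p under 0.05, as had 6506 of the 22000 genes. The median log2 fold change of the 9 was -3.01, against -0.06 over all genes tested. The difference of CCN4 was known from an earlier analysis of these data, so it is not independent evidence.

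CCN1 ran from 5.93 to 115 TPM with a median of 25.9 in Ewing lines, and from 282 to 2062 TPM with a median of 534 in osteosarcoma lines. The ranges did not overlap, as for 5.58% of all genes tested, 2.39% being lower and 3.19% higher in Ewing lines. The log2 fold change was -4.17 (SE 0.68, FDR 0.00185), and the 2-sided exact permutation test over lines of log2(TPM + 1) gave p = 0.000583, the smallest that 1716 splits can give (0.0158 adjusted over all genes). Leaving out any 1 line or replicate number moved the fold change between -4.58 and -3.63 and kept the call in all 16 such fits.

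CCN2 ran from 1.55 to 97.1 TPM with a median of 15.2 in Ewing lines and from 85.6 to 2625 TPM with a median of 130 in osteosarcoma lines. The ranges overlapped through A673, MHHES1 and G292. The log2 fold change was -4.02 (SE 1.14, FDR 0.0317). Exact permutation gave p = 0.00524, or 0.0471 after adjustment over all genes. Without MG63 it was -2.12 with an FDR of 0.112, and the call was also lost without EW3, EW24, RDES or SKES1.

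CCN4 had a median of 0 TPM in Ewing lines and of 3.85 TPM in osteosarcoma lines, where it ran from 0.105 to 112 TPM, and the ranges did not overlap. The fitted log2 fold change was -12.31 (SE 1.94, FDR 0.00161), a value that depends on the prior count because of the near absence in Ewing lines. The exact permutation p was 0.000583. The call was kept in all 16 fits with a line or replicate number left out, from -12.99 to -9.64.

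WWTR1 ran from 6.20 to 34.7 TPM with a median of 13.9 in Ewing lines and from 9.74 to 155 TPM with a median of 81.3 in osteosarcoma lines. The ranges of line means overlapped through U2OS alone. The log2 fold change was -2.18 (SE 0.60, FDR 0.0274), and the exact permutation p was 0.0239 (0.114 adjusted over all genes). The call was lost without RDES, SKES1, TC71, HOS-MNNG or MG63 and with HOS-MNNG and KHOS counted as 1 line, where the fold change stayed between -2.42 and -1.91 over single omissions.

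The other genes did not pass. YAP1 had a log2 fold change of -0.40 (SE 0.43, FDR 0.587), at 55.8 ± 41.1 TPM (SD, n = 7) in Ewing lines and 62.9 ± 28.2 (n = 6) in osteosarcoma lines. AMOTL2 gave -0.92 (SE 0.41, FDR 0.155), CCN3 gave -3.01 (SE 1.39, FDR 0.164) and ANKRD1 gave -4.83 (SE 1.89, FDR 0.106). Leaving out 1 line moved CCN3 between -3.97 (without EW3) and -2.16 (without G292) and ANKRD1 between -6.10 (without A673) and -3.70 (without U2OS), with neither called. DESeq2, run as an alternative, called ANKRD1 (FDR 0.0158), CCN3 and CCN6 (FDR 0.00796) as well, and gave no adjusted p for CCN2 and CCN4. CCN6 was the 1 gene with a positive value, 1.31 (SE 0.45, FDR 0.0673), and edgeR called it without HOS-MNNG (1.59, FDR 0.0463). Its lines did not overlap, 0.282 to 0.475 TPM against 0.0308 to 0.232 TPM, and the exact permutation p was 0.000583 (0.0158 adjusted over all genes), on the few reads given above. CCN5, which did not pass the filter, had means of 0.0435 and 0.295 TPM and overlapped. It passed the filter and was called lower without KHOS (-2.77, FDR 0.0487), but not without HOS-MNNG (FDR 0.0876).

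Markers of other cell types that moved in the same comparison were KRT8 (7.11 against 228 TPM), CD14 (0.272 against 2.27) and PECAM1 (0.115 against 0.638), 1 of 4 epithelial, 1 of 3 leukocyte and 1 of 3 endothelial markers tested, all called lower in Ewing lines. PTPRC and CDH5, which define leukocytes and endothelium, had line means of at most 1.23 and 5.28 TPM, and CD3E was listed at 0 in all osteosarcoma lines and was at most 0.0196 TPM in Ewing lines. The part of other cells in these differences was not tested. In bulk libraries, fewer cells that express a gene and less RNA per cell cannot be told apart.

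Other genes of the pathway were read from lists that leave the 10 genes out. Of 18 further YAP/TAZ target genes, 8 (44.4%) were called lower in Ewing lines and none higher, against 8.4% and 5.96% of all genes tested. All 18 had a negative log2 fold change, with a median of -1.62. The count called was 4 without MHHES1 or RDES and 5 without EW24, SKES1 or TC71. The largest were AXL, a receptor tyrosine kinase (-6.06, SE 0.80, FDR 0.000524), at 2.82 ± 2.60 TPM in Ewing lines and 179 ± 64.7 in osteosarcoma lines, MYOF, a membrane repair protein (-5.81, SE 1.63), and TGFB2, a growth factor (-3.66, SE 1.14). The line means of AXL did not overlap between the types, with 0.131 to 7.64 TPM against 100 to 264 TPM.

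Receptors and binding partners of CCN proteins were called lower in 5 of 10 cases (50%, against 8.4% of all genes tested). None was called higher, and the median log2 fold change was -1.48. The integrin subunit ITGB3 was at 0.182 ± 0.0697 TPM in Ewing lines against 7.28 ± 12.9 in osteosarcoma lines (-5.38, SE 0.91). ITGA6 was at 4.13 ± 3.34 against 35.5 ± 19.5 TPM (-3.29, SE 0.70). SDC4, a heparan sulphate proteoglycan, was at 17.4 ± 9.25 against 129 ± 65.8 TPM (-2.99, SE 0.38).

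Of 22 Hippo kinases and regulators 2 (9.09%) were called, against 14.4% of all genes tested, with a median of -0.20. The count was 4 without MG63 and 1 without replicate 2 of every line. NF2, which encodes merlin, an activator of the Hippo kinases, was lower in Ewing lines at 9.46 ± 1.74 against 41.6 ± 30.4 TPM (-2.12, SE 0.27). FAT4, an atypical cadherin, was higher at 1.77 ± 1.05 against 0.409 ± 0.251 TPM (2.13, SE 0.53). Of 6 tested TEAD and VGLL genes, TEAD2, a DNA-binding partner of YAP1 and TAZ, was higher in Ewing lines at 127 ± 45.6 against 31.6 ± 23.5 TPM (1.996, SE 0.48). It was the 1 gene called on that list (16.7%, near the 14.4% of all genes tested), and the other 5 had negative values. The line means of TEAD2 overlapped, with 53.9 to 192 TPM in Ewing and 4.65 to 64.0 TPM in osteosarcoma lines.

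**Figure D3:**
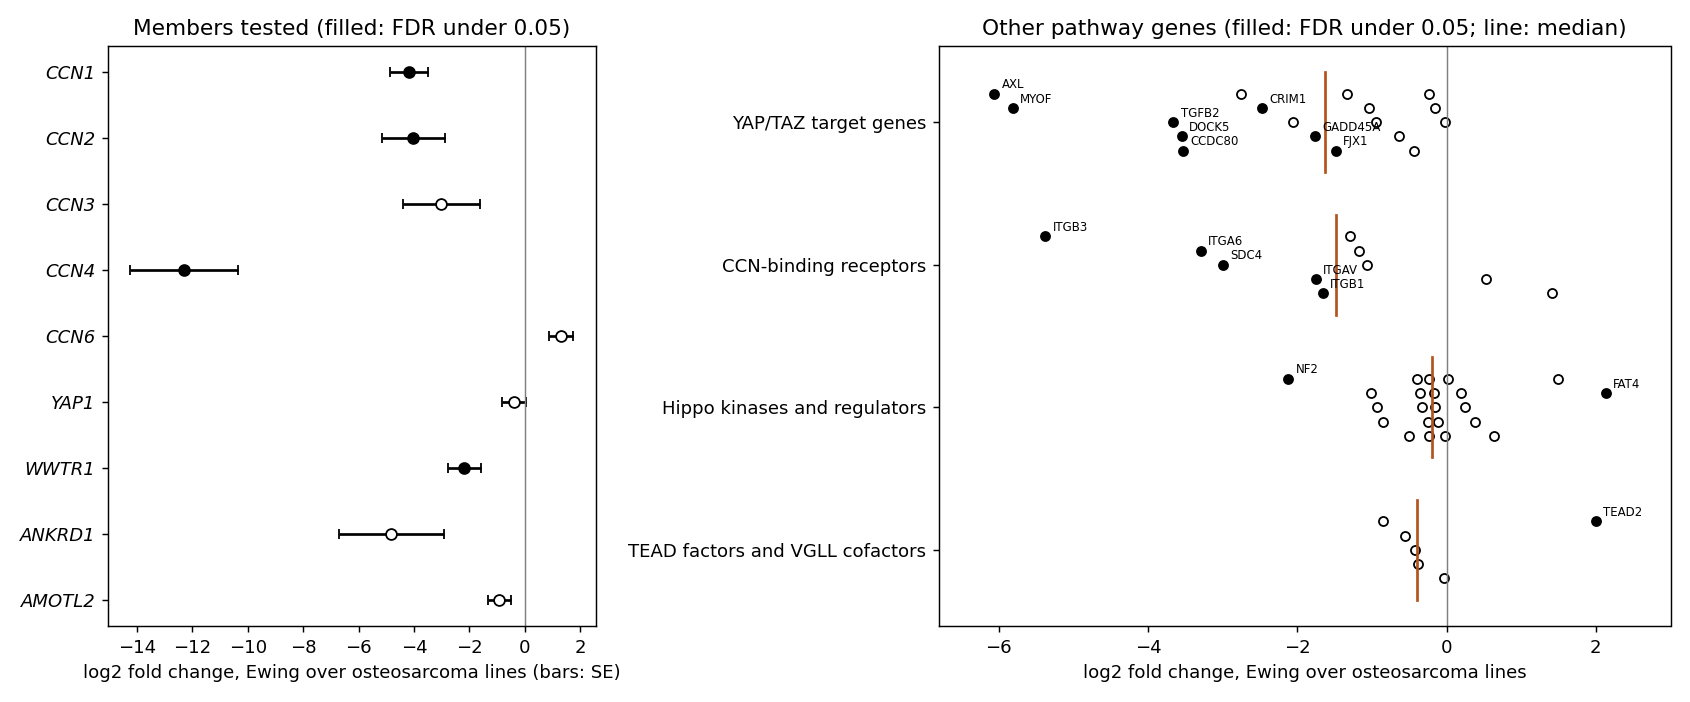
Log2 fold changes of Ewing over osteosarcoma lines from edgeR: left, the 9 tested genes of the family and axis with their standard errors; right, the 4 pathway lists with a line at each list's median. Filled symbols have an FDR under 0.05; all 18 further YAP/TAZ targets lie below 0, whereas most Hippo regulators lie near it.

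Within the tumour types, the genes did not keep 1 common order. The values below are Pearson correlations of log2(TPM + 1) across line means, given as a description over 7 Ewing and 6 osteosarcoma lines, where points share library preparation and HOS-MNNG and KHOS share an origin. CCN1 and AMOTL2 followed each other in both types, at 0.94 in Ewing and 0.89 in osteosarcoma lines (0.92 and 0.99 without the 2 lines farthest from the CCN1 median). CCN1 and CCN2 did so in Ewing lines (0.95, and 0.89 without 2 lines) but had 0.08 in osteosarcoma lines, and 0.78 there without the 2 lines farthest in CCN1. CCN2 and AMOTL2 had 0.96 and 0.43, and 0.97 and 0.33 without 2 lines. YAP1 and CCN1 had 0.73 in Ewing and -0.57 in osteosarcoma lines, and 0.69 and -0.21 without 2 lines. YAP1 and WWTR1 had -0.34 and 0.29, and -0.81 and 0.16 without 2 lines. Spearman's rho was 1 and 0.89 for CCN1 with AMOTL2, 0.89 and 0.26 for CCN1 with CCN2, 0.89 and 0.43 for CCN2 with AMOTL2, 0.71 and -0.54 for CCN1 with YAP1, and -0.39 and 0.37 for YAP1 with WWTR1. In the osteosarcoma lines the value of CCN1 with CCN2 changed when the 2 lines farthest in CCN1 were left out. Few lines remain then, and other omissions were not tried.

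The genes most like each member were sought among 15707 genes by Pearson r over all 13 lines, which mixes the difference between tumour types with that between lines. For CCN1 they were LOC107985291 (0.954), SDC4 (0.951) and SP140L (0.947), and for CCN2 SFXN3 (0.901), TRAM2 (0.896) and ITGB1 (0.895). SDC4 kept 0.924 with CCN1 within Ewing and 0.670 within osteosarcoma lines. For CCN3 they were INKA2 (0.925), AARD (0.894) and ITGB8 (0.883), and for CCN4 LRRC15 (0.971), GCNT1 (0.969) and ATP10A (0.964). GCNT1 had -0.182 with CCN4 within Ewing lines, where CCN4 is near 0. For YAP1 they were NSMCE3 (0.895), GPR173 (0.848) and WASF3 (0.837), and for WWTR1 REEP5 (0.918), DKK1 (0.905) and S100A4 (0.877). DKK1 had 0.991 with WWTR1 within osteosarcoma but 0.218 within Ewing lines. For ANKRD1 they were LINP1 (0.927), VGF (0.923) and HS1BP3-IT1 (0.916), and for AMOTL2 FSTL1 (0.917), PSAP (0.911) and GADD45B (0.893).

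Doxycycline in the sh908 cells changed none of the 10 genes past the threshold. With 3 against 3 libraries edgeR called 0 of 14252 genes (0%), while 94 had an unadjusted p under 0.05 and DESeq2 called 2. Same-numbered libraries deviated together, so the fit with replicate pairs as a block is given beside it, which called 73 genes (0.512%), KCNN1 among them (log2 fold change -1.46, SE 0.13, FDR 0.00132). Of the 10 genes 5 were tested and 0 were called in either fit, and for none of the 10 did the libraries of the groups fail to overlap (3.65% of all genes tested). The numbers below are TPM of replicates 1, 2 and 3.

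CCN2 was at 18.3, 3.71 and 3.03 TPM in uninduced and 27.8, 16.04 and 3.16 TPM in induced cells. It was higher in 3 of 3 pairs, by ratios of 1.52, 4.32 and 1.04, and the groups overlapped. The log2 fold change was 0.98 (SE 1.08), and with the block 0.98 (SE 0.41, FDR 0.432). CCN1 was at 11.3, 5.44 and 4.19 against 11.6, 7.38 and 4.38 TPM (0.21, SE 0.65; block 0.21, SE 0.15, FDR 0.573), again with overlap. AMOTL2 was at 17.7, 8.53 and 8.56 against 22.8, 18.7 and 9.55 TPM, with a value of 0.62 (SE 0.57) and with the block of 0.59 (SE 0.16, unadjusted p = 0.00548, FDR 0.167). CCN1, CCN2 and AMOTL2 were thus higher in each same-numbered pair without passing the test, and ANKRD1 was not higher in each. For CCN1 and CCN2 this depended on the pairing. Induced replicate 2, which correlated better with uninduced replicate 1, was below it for CCN1 (7.38 against 11.3 TPM) and CCN2 (16.04 against 18.3 TPM). For AMOTL2 it was above (18.7 against 17.7 TPM). The share of all genes that moved in 1 direction in all 3 pairs was not computed. Leaving out 1 library moved CCN2 between 0.18 (without induced replicate 1) and 2.47 (without uninduced replicate 1), and AMOTL2 between 0.24 and 1.21 in the same fits, with neither called.

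The coactivators were lower with doxycycline in 3 of 3 pairs, also without passing. YAP1 was at 13.3, 11.4 and 29.7 against 10.6, 10.4 and 27.7 TPM (block -0.15, SE 0.09, FDR 0.529). WWTR1 was at 18.7, 17.1 and 36.1 against 14.6, 15.3 and 32.4 TPM (block -0.19, SE 0.09, FDR 0.413). Replicate 3 held more YAP1 and WWTR1 and less CCN1 and CCN2 than replicates 1 and 2 in both sh908 groups, and the spread between replicates exceeded the difference with doxycycline for each. ANKRD1 was at 0.464, 0 and 0.182 against 1.14, 0.137 and 0.0813 TPM, higher in 2 pairs and lower in 1. CCN3 had 2 estimated counts without and 13 with doxycycline, a ratio of 5.53 (95% exact interval 1.25 to 50.5, counting error only). CCN4, CCN5 and CCN6 had at most 3 estimated counts in either group.

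No further pathway gene passed the test: 0 of 16 tested YAP/TAZ targets, 0 of 22 Hippo genes, 0 of 6 TEAD and VGLL genes and 0 of 9 receptors were called by either edgeR fit. With the block, their median log2 fold changes were -0.030, -0.021, 0.018 and 0.087, against -0.0020 over all genes. The epithelial marker KRT8 was called higher with doxycycline in the block fit, at 50.03 against 33.97 TPM.

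Uninduced sh908 cells had lower levels than parental A673 of several of these genes. The comparison joins the hairpin construct, the derivation of the cells and the library set, and these cannot be told apart. edgeR called 5 of 7 tested genes, all lower in the sh908 cells: CCN1, CCN3, YAP1, ANKRD1 and AMOTL2. Of all 15778 genes tested, 2388 (15.1%) were called 8.71% higher and 6.42% lower. With the replicate number as a block 319 genes (2.02%) and 0 of the 10 were called. Median log2 fold changes were -2.22 for the 7 and 0.01 for all genes. The uninduced libraries are also the controls of the doxycycline comparison, and the parental ones are part of the tumour type comparison.

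Of the target genes, 3 were called lower. CCN1 was at 41.99, 61.6 and 38.6 TPM in parental and 11.3, 5.44 and 4.19 TPM in uninduced cells (log2 fold change -2.22, SE 0.50, FDR 0.0335). AMOTL2 was at 56.3, 67.3 and 53.9 against 17.7, 8.53 and 8.56 TPM (-1.83, SE 0.41, FDR 0.0315). ANKRD1 was at 8.37, 19.8 and 10.7 against 0.464, 0 and 0.182 TPM (-5.38, SE 0.87, FDR 0.0157). None of these overlapped between the groups. CCN2 was at 84.0, 132 and 75.5 against 18.3, 3.71 and 3.03 TPM, also with no overlap, yet did not pass with edgeR (-2.96, SE 0.81, FDR 0.0531), whereas DESeq2 called it. Without uninduced replicate 1 CCN2 was called by edgeR (-4.43, FDR 0.0176). Leaving out 1 library moved CCN2 between -4.43 and -2.46, CCN1 between -2.87 and -1.82, AMOTL2 between -2.40 and -1.51 and ANKRD1 between -6.73 and -4.89, in each case lowest without uninduced replicate 1. CCN3 had 90 estimated counts in parental and 2 in uninduced cells, 28.01-fold fewer (95% exact interval 7.53 to 235, counting error only).

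Of the coactivators only YAP1 was called. It was at 60.9, 50.9 and 49.2 TPM in parental and 13.3, 11.4 and 29.7 TPM in uninduced cells (-1.19, SE 0.23, FDR 0.0214), with no overlap. Leaving out 1 library moved YAP1 between -1.44 and -1.04. It was called in only 1 of these 6 fits, the one without uninduced replicate 3. WWTR1 was at 31.04, 28.9 and 29.5 against 18.7, 17.1 and 36.1 TPM, which overlapped (0.07, SE 0.15, FDR 0.782). YAP1 was accordingly 64.2 ± 1.89% of the summed YAP1 and WWTR1 TPM in parental cells and 42.3 ± 2.62% in uninduced cells, and stayed at 42.9 ± 2.92% with doxycycline. KCNN1 itself gave 0.31 (SE 0.41, FDR 0.626), and was called higher without uninduced replicate 3 (0.69, FDR 3.55e-05).

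On the TPM scale most genes were lower in the uninduced cells, with a median difference of -0.32 in log2(TPM + 1), against 0.01 for edgeR's fold changes, and WWTR1 and KCNN1 were lower on that scale (-0.38 and -0.30) but not by edgeR. On the TPM scale the groups did not overlap for 7 of the 10 genes and for 46.6% of all genes tested. The exact permutation test could not go below p = 0.1 with 3 against 3 libraries, and gave 0.1 for each of these 7. A measure of fragment length, transcript length minus effective length, was 179.55 to 189.83 nucleotides in parental and 140.47 to 157.72 in uninduced libraries, and its part in the result was not tested. Without any single parental library only 2 to 8 genes and none of these 10 were called, without uninduced replicate 2 266 genes and 1 of the 10, without uninduced replicate 1 1377 genes and 5 of the 10, and without uninduced replicate 3 10202 genes and 5 of the 10.

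**Figure D4:**
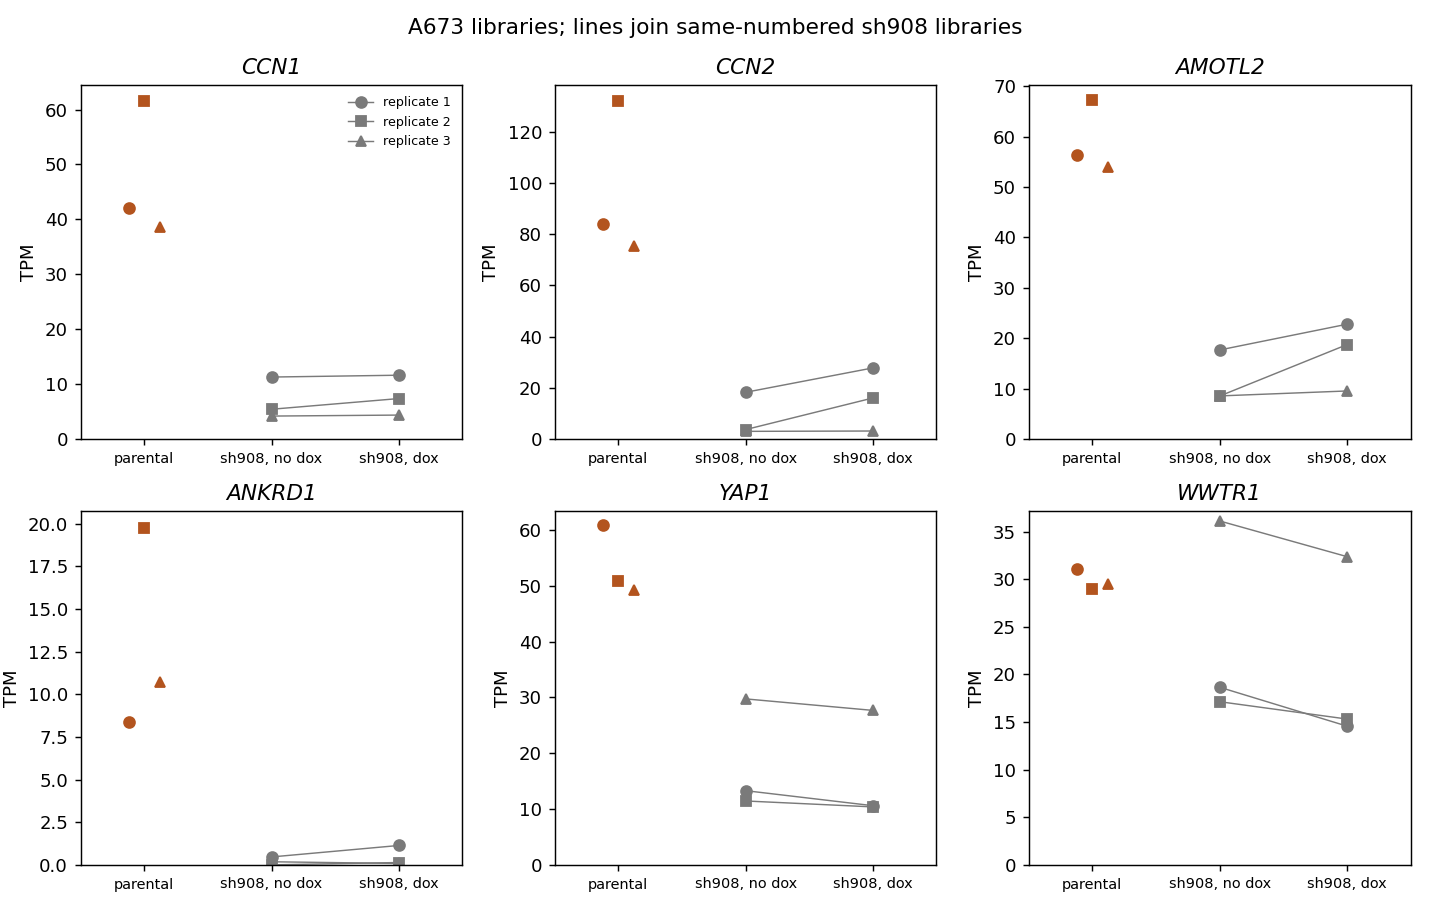
TPM of 6 genes in parental A673 (orange) and in sh908 cells without and with doxycycline (grey), 1 symbol per library and lines between same-numbered sh908 libraries, on linear axes that start at 0. CCN1, CCN2, AMOTL2, ANKRD1 and YAP1 lie below all parental libraries in both sh908 groups, and replicate 3 stands apart for YAP1 and WWTR1.

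Of 17 tested YAP/TAZ targets 5 were called lower and none higher, with a median of -0.72. TGFB2 was at 0.197 ± 0.120 TPM in uninduced and 1.81 ± 0.269 in parental cells (-2.73, SE 0.52), IGFBP3, an IGF-binding protein, at 0.0641 against 0.364 TPM (-2.02, SE 0.51), and CRIM1, a membrane protein that binds BMPs, at 10.5 ± 2.70 against 45.1 ± 5.38 TPM (-1.57, SE 0.27). Of 22 Hippo genes 5 were called lower and 1 called higher. AMOT, a relative of AMOTL2, was at 0.932 ± 0.253 against 5.86 ± 0.491 TPM (-2.13, SE 0.26), AJUBA, a LIM protein that restrains the Hippo kinases, at 8.37 ± 1.91 against 43.1 ± 0.874 TPM (-1.92, SE 0.25), and LATS2, a Hippo kinase that is also on the target list, at 6.09 ± 3.32 against 15.5 ± 1.71 TPM (-1.01, SE 0.24). DCHS1, an atypical cadherin, was higher at 8.17 ± 2.07 against 4.81 ± 0.565 TPM (1.19, SE 0.15).

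Of 6 TEAD and VGLL genes 3 were called. VGLL3 (-1.42, SE 0.22) and TEAD1 (-1.04, SE 0.15) were lower in uninduced cells, with TEAD1 at 10.98 ± 4.45 against 29.6 ± 1.05 TPM. TEAD2 was higher (0.76, SE 0.13) at 139 ± 24.1 against 113 ± 5.29 TPM. Of 10 receptors, SDC4 (-1.17, SE 0.21), ITGB1 (-0.92, SE 0.23) and ITGA6 (-0.60, SE 0.14) were called lower. The endothelial marker PECAM1 was called lower, at 0.0453 against 0.200 TPM, and neither of the 2 epithelial markers tested was called; none of the 5 leukocyte markers passed the low-count filter. Without any 1 parental library none of the 4 lists had a called gene. Without uninduced replicate 2 the counts were 0 targets, 2 Hippo genes, 0 TEAD and VGLL genes and 0 receptors, without replicate 1 they were 5, 3, 3 and 1, and without replicate 3 they were 13, 16, 4 and 7.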

How the data were processed

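RNA was measured in 45 poly(A) libraries. Per the file headers, the authors deposited 1 table per library with transcript length, effective length, estimated counts and TPM. The estimated counts and TPM were made by the authors before deposit, per the file headers. The submitters' processing notes name fastp 0.19.5, kallisto 0.46.2 and the builds hg38 and GRCh38.p14, without their roles. Of 177816 transcripts, 169966 (95.59%) were matched to 41582 genes through RefSeq GRCh38.p14; the unmatched ones held 0.915% to 1.6% of counts and were left out.

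The 10 genes and all lists were chosen with earlier results of these data known. Estimated counts were summed per gene, rounded, filtered with filterByExpr and tested with edgeR 4.0.16 (TMM, robust quasi-likelihood, Benjamini-Hochberg, threshold 0.05), after summing the 3 libraries of a line between tumour types. Single genes were also tested by exact permutation of lines or libraries on the log2 scale after adding 1 TPM. Alternatives were DESeq2 1.42.0 size factors and tests, no filter, other pseudocounts, length offsets, joint fits, replicate blocks and omissions. Versions were R 4.3.3, Python 3.11.15 and scipy 1.17.1. The edgeR step was tested on simulated data.

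Named genes were the 10, KCNN1, up to 3 called genes per direction with the largest change in each pathway list, and the 3 genes of highest r with each member, among genes with at least 5 TPM in some line; further names (the marker genes and the targets behind counts) were chosen after their values were seen. Same-numbered sh908 libraries deviated together from their group means (r = 0.682, 0.581 and 0.881), all over 0.1, and were taken as pairs; induced replicate 2 correlated better with uninduced replicate 1 (0.607). Library depth limits genes of few counts, and counting intervals cover counting error only, since no molecular identifiers tie a read to 1 molecule. The result of 1 gene on the receptor list is not reported here.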

Additional observations from a re-analysis of the deposited data

Results flagged for a closer look

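CCN5 in EW24 stood apart from the other Ewing lines, at 0.180 TPM against 0 to 0.0654 TPM in the other 6 lines. On the log2(TPM + 1) scale its gap to the next line was 0.616 of the range of the 7 lines, above Dixon's 95% critical value of 0.568. Of 20 groups of gene and tumour type examined this was the 1 that did so, and chance gives about 1 in 20. The level rests on a few reads.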

How the results depend on the processing

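CCN1 and CCN4 kept direction and call between the tumour types in every alternative that gave an adjusted p. The number of genes called there was 5399 with DESeq2 and 16743 when 39 libraries entered as line means with a replicate block, a fit that takes libraries of a line as replicates and called 8 of the 10 genes; leaving out 1 line or replicate number left 2 to 5 of them called (2 without RDES, SKES1 or MG63). With doxycycline the count of genes was 2 with DESeq2, 73 with the replicate block, 7 to 167 with the block and 1 pair left out, and 12 in a fit of all 45 libraries; none of the 10 was called in any of these. CCN1 ran from -0.34 (without induced replicate 1) to 0.869 (without uninduced replicate 1), and was -0.159 without uninduced replicate 3. YAP1 ran from -0.481 (without induced replicate 3) to 0.137 (without uninduced replicate 3), and was 0.0218 without induced replicate 2. The cause was not tested.

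Between uninduced and parental cells, replicate numbers correlated at 0.0475, 0.0860 and 0.250 and were not taken as pairs. The replicate block gave 319 genes and 0 of the 10 (FDR 0.0516 to 0.0587 for CCN2 and the 5 called without it). With the block and without pair 1, 2 or 3 it gave 205, 345 and 8250 genes and 4, 4 and 3 of the 10. DESeq2 called 4169 genes and the fit of all 45 libraries 7558. Leaving out 1 library gave 2 to 10202 genes and 0 to 5 of the 10. WWTR1 ran from -0.071 without uninduced replicate 3 to 0.166 without uninduced replicate 2, and was -0.094 with the block and without pair 3. KCNN1 turned to -0.227 with the block and without pair 1 and to -0.00468 without pair 2, and was called higher at 0.709 without pair 3. The cause was not tested.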
